A study of Mus musculus with 15 samples.

Results

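Interferon-stimulated genes are the genes that a cell switches on when an interferon binds its receptor. A list of 40 of them, chosen by name, was followed by RNA sequencing in basophils, eosinophils and natural helper cells from the lungs of mice. Of the 40 genes, 39 had a row among the 21110 genes of the deposited table. All 39 passed the filter on low values, which 14257 genes passed. Trim30a had no row and was not analysed here.

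As background, type I interferons bind a receptor made of IFNAR1 and IFNAR2, whose kinases activate transcription factors in the cytoplasm. A complex that holds STAT2 and IRF9 then binds a promoter element called the ISRE. Interferon gamma has a receptor of its own and acts mainly through another promoter element, called the GAS. In the lung these genes are best known for defence against viruses: some sense foreign RNA, some degrade it or block its translation, and some stop virus from entering or leaving the cell.

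The libraries, 15 in all, came from the lungs of C57BL6/J mice, and the ages of the mice were not given. Papain, a plant protease used as an airway allergen, was given into the nose at 50 ug per mouse on 3 consecutive days, and naive mice were untreated. Eosinophils, granulocytes of allergic inflammation, were sorted as SiglecF+, Gr1lo cells without autofluorescence. After papain they were split into CD11c+ and CD11c- gates, with 2 libraries each, and naive eosinophils had 2 libraries with no CD11c gate named in their titles. Basophils, granulocytes that carry IgE receptors, were sorted as FceR1+, CD49b+, c-kit- cells, with 2 libraries after papain and 2 from naive mice. Natural helper cells, also called group 2 innate lymphoid cells, were sorted as Lineage-, Thy1.2+, IL7Ra+, CD25+ cells. They had 1 library labelled 3'UTRKO after papain, 2 libraries of papain mice and 2 of naive mice. The labels do not say which gene lost its 3' untranslated region in the 3'UTRKO mice. They also do not say whether libraries of a group came from separate animals, so a p-value here measures the spread between libraries alone, and that spread may be technical.

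Values are FPKM, fragments scaled to transcript length and library size, rounded to whole numbers. FPKM summed to between 374841 and 570208 per library, and since the table holds no read depth, values carry no counting error. Some libraries stood apart from their labels. The summed FPKM of 10 basophil markers was 744 and 2006 in the papain basophil libraries 1 and 2, against 6841 and 5914 in naive basophils. Papain basophil library 1 also held 12273 FPKM of 8 alveolar macrophage markers, against 305 in library 2, 73 and 54 in naive basophils, and 20 to 1491 in all other libraries. By limma 9 of the 10 basophil markers were lower in papain than in naive basophils and none was higher. Mcpt8, a basophil protease, was at 30 and 95 FPKM in papain basophils, against 824 and 252 FPKM in naive basophils. Papain library 2 held 35814 FPKM of 12 epithelial markers, against 20982 in library 1 and 6708 and 8783 in naive basophils. Most of that sum was Scgb1a1, a secreted club cell protein, with 19550 and 32382 FPKM in the papain basophil libraries 1 and 2. Eosinophil libraries held 6483 to 16568 FPKM of 9 neutrophil markers. Most of that sum was Retnlg, S100a8 and S100a9, while Csf3r was at 17 to 103 FPKM and Mmp8 at 2 to 11 FPKM. Eosinophil peroxidase (Epx), a defining eosinophil gene, was listed at 0 in 4 of the 6 eosinophil libraries. Some other eosinophil markers were high in all of them: Ccr3 at 124 to 229, Siglec5 at 63 to 102 and Cebpe at 40 to 89 FPKM. In the other cell types these spanned 0 to 9, 0 to 8 and 0 to 3 FPKM. Ear6, Prg2 and Alox15 were also higher in every eosinophil library than in any other library. Il5ra, at 2 to 16 FPKM in eosinophils, Ear1, at 17 to 289, and Ear2, at 21 to 206, were not. Papain basophil library 1 held 69 FPKM of Ear1 and 382 FPKM of Ear2, and naive basophil library 2 held 2 FPKM of Il5ra. The defining plasmacytoid dendritic cell marker Siglech was at 0 to 2 FPKM in every library. Results on papain basophils are therefore given with each library left out in turn. In sorted bulk RNA, fewer cells of a type and less RNA per cell cannot be told apart.

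Promoters of 30 of the 39 genes were found among RefSeq promoters of the mouse build GRCm38.p6, which run from 250 bases before the start of transcription to 50 after it. The ISRE was searched as GAAA-NN-GAAA and the GAS as TTC-NNN-GAA, each on both strands. Counted by gene, 17 of the 30 (56.7%) had an ISRE match in a promoter, against 3.99% of the 27025 genes of that reference. A GAS match lay in a promoter of 9 of the 30, against 9.55% of the genes of that reference. The windows shown are those of 5 of the 6 genes that were higher in papain than in naive basophils. They read 5′ to 3′ along the gene's strand, with the motif in capitals; TTTC-NN-TTTC is the ISRE on the opposite strand.
Bst2 ISRE, chr8:71537577-71537606, minus strand: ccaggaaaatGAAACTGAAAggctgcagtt
Bst2 GAS, chr8:71537590-71537618, minus strand: tctaggggcaTTCCAGGAAaatgaaactg
Ifit1 ISRE, chr19:34640794-34640823, plus strand: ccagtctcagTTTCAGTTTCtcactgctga
Irgm1 ISRE, chr11:48871425-48871454, minus strand: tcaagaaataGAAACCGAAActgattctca
Oas1a ISRE, chr5:120907520-120907549, minus strand: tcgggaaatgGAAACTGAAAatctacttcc
Oas1a GAS, chr5:120907605-120907633, minus strand: aagctcagacTTCAAAGAAcctggtcaga
Irf1 GAS, chr11:53769914-53769942, plus strand: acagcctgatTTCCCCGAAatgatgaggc
Irf1 had a GAS match and no ISRE match, Ifit1 and Irgm1 an ISRE match only, and Bst2 and Oas1a both. In Bst2 the GAS match overlaps a further ISRE match that is not shown, and Ifit1, Irgm1 and Oas1a each hold a further ISRE match. The sixth gene, Ifi44, had neither in this window.

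In eosinophils and basophils, 3 membrane proteins carried most of the RNA of the 39 genes, and in natural helper cells they did not. Ifitm1, Ifitm2 and Ifitm3, which block the fusion of viruses with cell membranes, made up 68.1% and 64.8% of the summed FPKM of the 39 genes in CD11c+ eosinophils, 82.0% and 70.4% in CD11c- eosinophils and 76.8% and 77.6% in naive eosinophils. The share was 75.9% and 79.6% in papain basophils and 91.3% and 93.7% in naive basophils. In the 5 natural helper cell libraries it was 22.6% to 31.1%. Without these 3 genes the members summed to 278 to 459 FPKM in eosinophils, 426 and 1135 in papain basophils, 447 and 267 in naive basophils, and 251 to 304 in natural helper cells. Papain basophil library 2 was thus far above every other library in this sum. It was the single highest library for 29 of the 39 genes. It also had the largest FPKM sum over all genes, 570208, and the share of all genes for which it was highest was not counted.

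**Figure D1:**
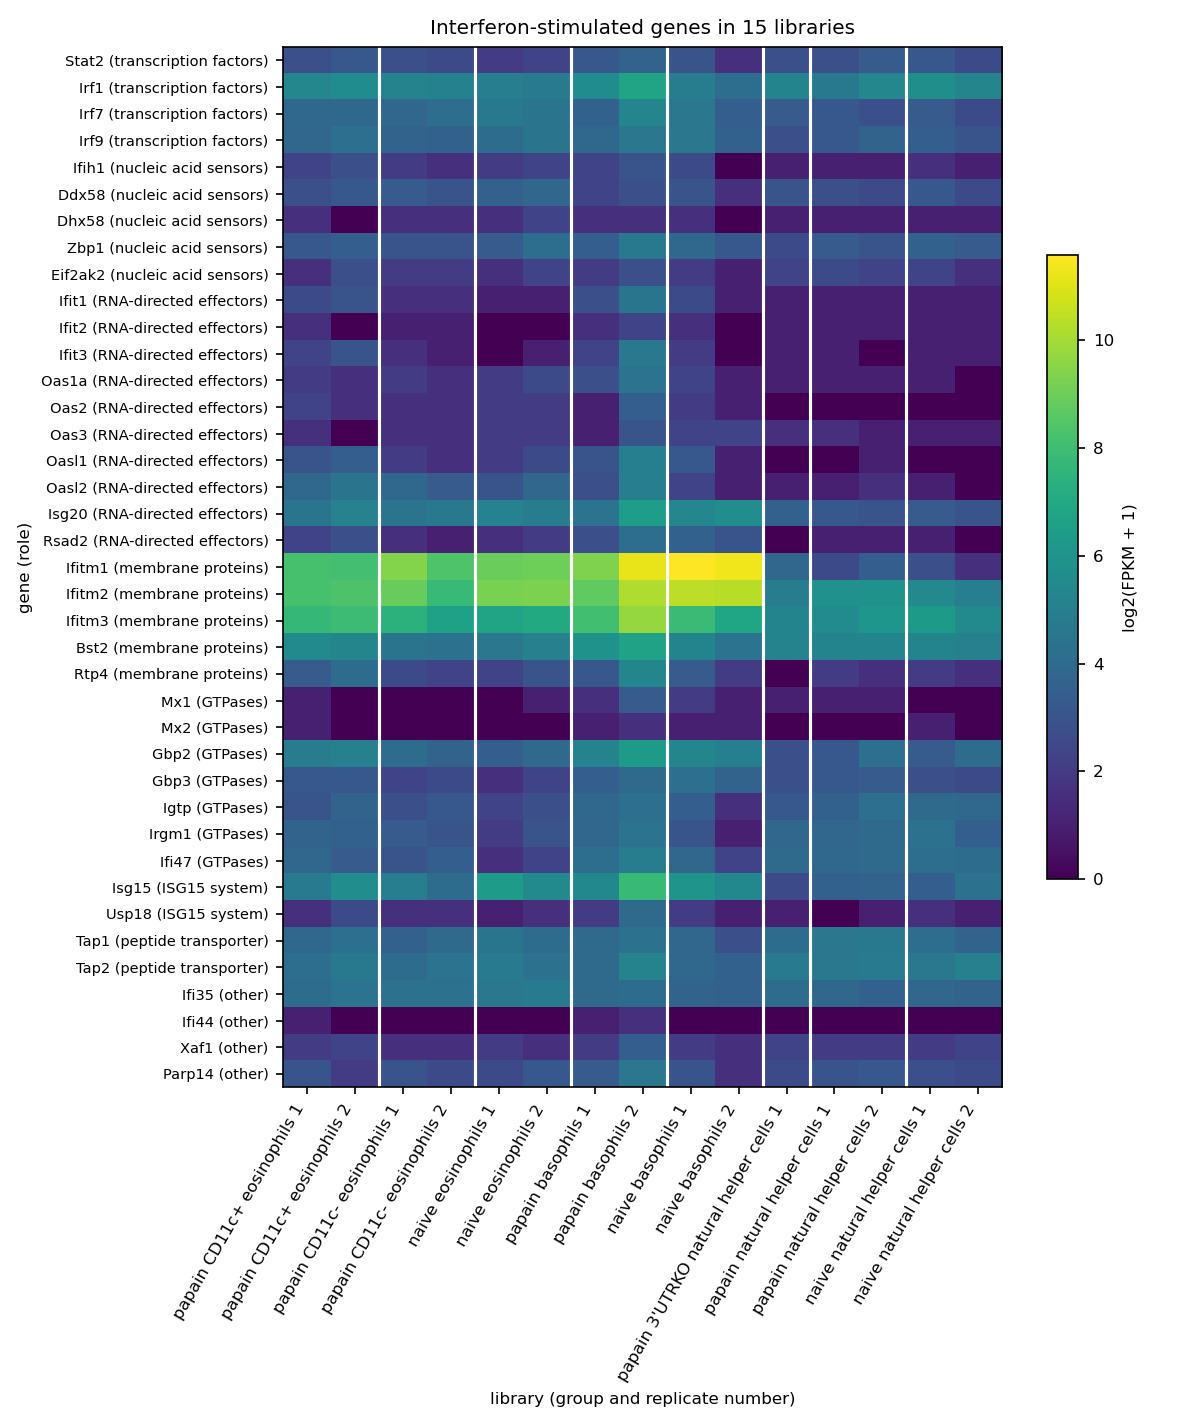
Expression of the 39 interferon-stimulated genes, as log2(FPKM + 1), in each of the 15 libraries (columns, grouped by cell type and treatment), with genes in rows by role. The rows of Ifitm1, Ifitm2 and Ifitm3 are brightest outside natural helper cells, and papain basophil library 2 is the highest library for 29 genes.

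Natural helper cells lay below the granulocytes for a small set of these genes. All 5 of their libraries were below all 10 others for 6 of 39 genes, against 3.16% of all genes tested: Ifitm1, Ifitm2, Ifitm3, Isg20, Irf7 and Oas2. No member had all 5 natural helper cell libraries above all others, against 5.97% of all genes tested. Irf7, the factor that drives the interferon alpha genes, spanned 5 to 9 FPKM in natural helper cells and 10 to 38 FPKM elsewhere. Isg20, an exonuclease that degrades RNA, spanned 7 to 11 FPKM in natural helper cells and 20 to 90 FPKM elsewhere. Of the antiviral effectors, Ifit1, Ifit2, Ifit3, Oas1a, Oas2, Oasl1, Mx1, Mx2 and Rsad2 did not exceed 1 FPKM in any of the 5 natural helper cell libraries. Naive eosinophils were as low for some of these, with Ifit1 at 1 and 1 FPKM, Ifit3 at 0 and 1 FPKM and Mx1 at 0 and 1 FPKM. Within natural helper cells, members with higher values than these effectors included Irf1, Bst2, Tap1, Tap2 and Irgm1. Irf1 spanned 25 to 54 FPKM in natural helper cells, Bst2 32 to 36 FPKM and the GTPase Irgm1 10 to 19 FPKM. The peptide transporter genes Tap1 and Tap2 spanned 12 to 25 and 24 to 32 FPKM. Each of these ranges overlapped that of the eosinophil and basophil libraries.

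In naive mice, 5 members were higher in basophils than in natural helper cells and none was lower, by limma at an adjusted p under 0.05. Among all genes tested 6.96% were higher and 13.6% lower. Ifitm1 was at 3067 and 2568 FPKM in naive basophils, against 6 and 2 FPKM in naive natural helper cells. Ifitm2 was at 1365 and 1306 FPKM in naive basophils, against 43 and 30 FPKM in naive natural helper cells. The groups were far apart for both genes, with differences in log2(FPKM + 1) of 9.26 ± 0.64 (standard error of the limma fit; adjusted p = 3.5e-05) and 5.18 ± 0.46 (adjusted p = 0.000157). Isg20 was at 40 and 51 FPKM in naive basophils, against 9 and 7 FPKM in naive natural helper cells (2.37 ± 0.56, adjusted p = 0.0183). Rsad2, the antiviral enzyme viperin, was at 11 and 7 FPKM in naive basophils, against 1 and 0 FPKM in naive natural helper cells (2.79 ± 0.51, adjusted p = 0.00581). Gbp3, a guanylate-binding GTPase, was at 18 and 12 FPKM in naive basophils, against 6 and 5 FPKM in naive natural helper cells (1.28 ± 0.31, adjusted p = 0.021). For these 3 genes too the libraries of the groups did not overlap. In all, both naive basophil libraries lay above both natural helper cell libraries for 14 members, against 13.5% of all genes, and below them for 5, against 34.7%. The remaining 34 members included Ifitm3, at 235 and 115 FPKM in naive basophils against 78 and 45 FPKM in naive natural helper cells, which did not pass (1.46 ± 0.56, adjusted p = 0.101). Leaving out naive basophil library 1 gave 4 members higher and 5 lower, and leaving out either naive natural helper cell library gave 3 higher. Median-ratio scaling called 9 members and quantile normalization 10. These scalings moved the share of higher calls among all genes called to 50.9% and 48.8%, against 33.8% unscaled.

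Naive eosinophils differed from naive natural helper cells in 6 members, 5 higher and 1 lower, against 11.6% of all genes higher and 16.5% lower. Ifitm1 was at 496 and 521 FPKM and Ifitm2 at 607 and 630 FPKM in naive eosinophils, against the natural helper cell values given above (6.80 ± 0.64, adjusted p = 0.00011, and 4.07 ± 0.46, adjusted p = 0.000288). Oasl2, a member of the oligoadenylate synthetase family, was at 7 and 13 FPKM in naive eosinophils, against 1 and 0 FPKM in naive natural helper cells (2.90 ± 0.73, adjusted p = 0.0174). Ifi35 was at 23 and 26 FPKM, against 13 and 12 FPKM in naive natural helper cells (0.92 ± 0.18, adjusted p = 0.00468), with little spread within either group. Isg20 was also higher in naive eosinophils, at 34 and 28 FPKM (1.83 ± 0.56, adjusted p = 0.0372). The single member that was lower was Ifi47, a GTPase of the immunity-related family, at 2 and 4 FPKM in naive eosinophils, against 17 and 16 FPKM in naive natural helper cells (-2.18 ± 0.48, adjusted p = 0.00915). The libraries of the groups did not overlap for any of the 6. In all, 18 members separated the groups with eosinophils higher, against 20.9% of all genes, and 7 with eosinophils lower, against 35.0%. Median-ratio scaling called 11 members, quantile normalization 13 and a fit of only the compared groups 10.

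Between the granulocytes, naive eosinophils were higher than naive basophils in 1 member and lower in 2, against 8.66% and 5.30% of all genes. Ifi35 was higher, with naive basophils at 12 and 11 FPKM (1.03 ± 0.18, adjusted p = 0.00529). Ifitm1 (-2.46 ± 0.64, adjusted p = 0.0345) and Gbp3 (-2.02 ± 0.31, adjusted p = 0.00298) were lower in eosinophils, and Gbp3 was at 2 and 4 FPKM there. Ifitm1 thus ran from naive basophils through naive eosinophils to naive natural helper cells, and each step passed the test with all libraries. The step between naive eosinophils and naive basophils did not pass when any of their 4 libraries was left out, or with a term for the replicate number (adjusted p up to 0.15). For Ifitm2 the step between naive eosinophils and naive basophils did not pass (-1.11 ± 0.46, adjusted p = 0.171), although their libraries did not overlap. Members separated these groups with eosinophils higher in 5 cases, against 24.2% of all genes, and lower in 8, against 15.2%. Leaving out naive basophil library 1 gave 4 higher and 1 lower. Median-ratio scaling raised the count of lower members to 5. Under it 45.5% of all genes called were higher, against 62.1% unscaled.

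**Figure D2:**
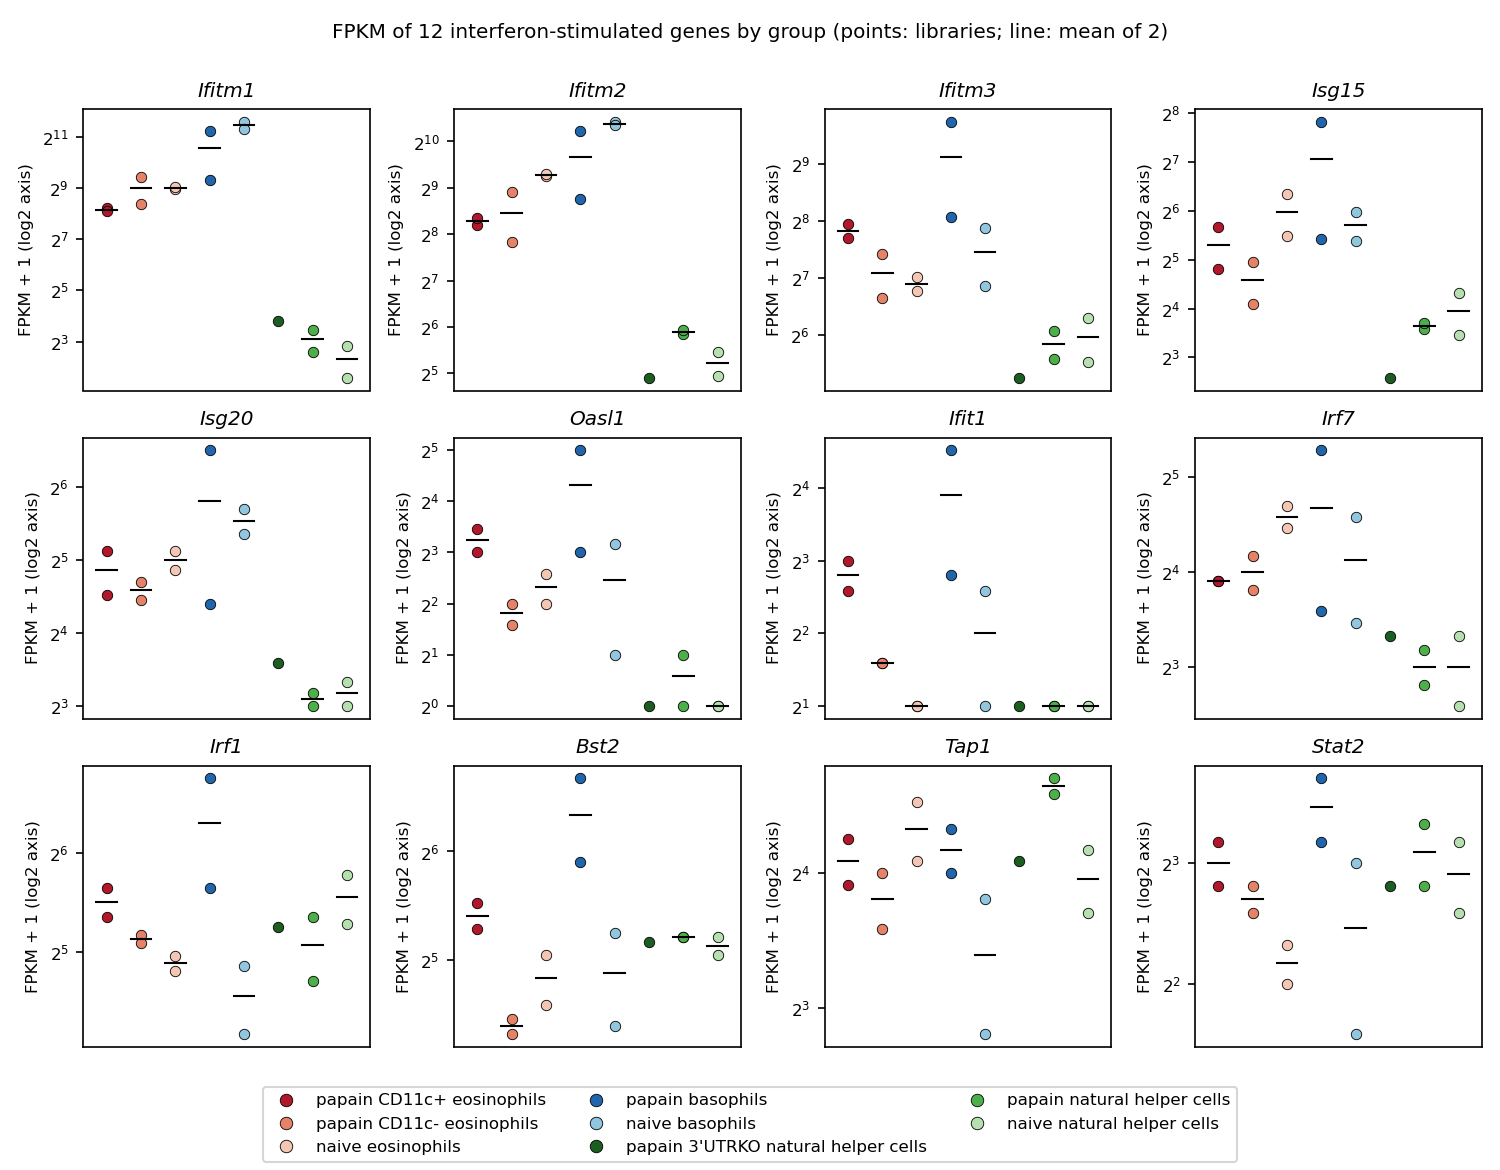
FPKM + 1 on a log2 axis for 12 interferon-stimulated genes in 8 groups, with 1 point per library and a line at the mean of the 2 libraries of a group. Ifitm1, Ifitm2, Isg20 and Irf7 are lower in all natural helper cell libraries (green) than in any eosinophil or basophil library, and the papain basophil libraries (dark blue) lie far apart for most genes.

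In basophils, 6 members were higher after papain than in naive mice and none was lower, against 22.1% of all genes higher and 3.88% lower, so the share of members called higher, 6 of 39, was not above the background. Irf1, a transcription factor strongly induced by interferon gamma, was at 49 and 107 FPKM in papain basophils, against 28 and 17 FPKM in naive basophils (1.69 ± 0.39, adjusted p = 0.0158). Bst2, which tethers budding virus to the cell surface, was at 59 and 101 FPKM in papain basophils, against 37 and 20 FPKM in naive basophils (1.47 ± 0.32, adjusted p = 0.0131). Both papain libraries lay above both naive ones for each gene. Irgm1, a GTPase that acts on vacuoles holding microbes, was at 13 and 20 FPKM in papain basophils, against 7 and 1 FPKM in naive basophils (2.10 ± 0.61, adjusted p = 0.035). Oas1a, an oligoadenylate synthetase that activates RNase L, was at 6 and 20 FPKM, against 4 and 1 FPKM in naive basophils (1.94 ± 0.61, adjusted p = 0.0454). Ifit1, which binds viral RNA, was at 6 and 22 FPKM, against 5 and 1 FPKM in naive basophils (1.87 ± 0.59, adjusted p = 0.0472). For Oas1a and Ifit1, papain library 1 stood only 2 and 1 FPKM above the higher naive library. Ifi44 was at 1 and 2 FPKM in papain basophils and listed at 0 in both naive libraries (adjusted p = 0.0148).

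Over all 39 members the median difference between papain and naive basophils was 0.94 in log2(FPKM + 1), and over all genes it was 0.50, so the members' median stood 0.44 above that of all genes. Without papain library 2 the 2 medians were 0.5 and 0.535, so the members no longer stood above all genes. Median-ratio scaling brought the 2 medians to 0.64 and 0.16, and quantile normalization to 0.29 and 0.00. The share of all calls that were higher moved with them, at 85.1% unscaled, 65.5% with median-ratio scaling and 45.9% with quantile normalization. Both papain libraries lay above both naive libraries for 16 of 39 members, against 37.5% of all genes, and below them for 2, against 8.91% of all genes. The 16 were Irf1, Stat2, Ifit1, Ifit3, Oas1a, Oasl2, Ifitm3, Bst2, Irgm1, Igtp, Ifi47, Tap1, Tap2, Ifi35, Ifi44 and Parp14. The 2 lower ones were Ifitm1, at 646 and 2384 FPKM against 3067 and 2568 FPKM in naive basophils (-1.18 ± 0.64, adjusted p = 0.213), and Ifitm2, at 430 and 1193 FPKM against 1365 and 1306 FPKM in naive basophils (-0.90 ± 0.46, adjusted p = 0.195). Several of the best known members did not pass, and their papain libraries lay far apart. Isg15, a ubiquitin-like modifier, was at 42 and 224 FPKM in papain basophils, against 62 and 41 FPKM in naive basophils (0.94 ± 0.72, adjusted p = 0.376), and papain library 1 lay within the naive range. Irf7 was at 11 and 38 FPKM, against 23 and 10 FPKM in naive basophils (0.41 ± 0.55, adjusted p = 0.628), and the groups overlapped. Ifit3 was at 4 and 24 FPKM, against 3 and 0 FPKM in naive basophils (2.48 ± 0.85, adjusted p = 0.0608).

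The replicates of the basophil groups differed in one direction across nearly all members. In papain basophils, 38 of 39 members were higher in library 2 than in library 1 and none was lower, while 39.8% of all genes were higher in library 2 and 44.4% lower. In library 2, 23 members and 9.95% of all genes were over 2-fold higher, and in library 1 no member and 12.7% of all genes were. The members' median difference was 1.24 on the log2 scale. By role, it was 2.00 over the 10 effectors that act on RNA, 1.66 over the 5 membrane proteins, 0.89 for the 4 transcription factors Stat2, Irf1, Irf7 and Irf9, and 0.59 over the 7 GTPases. Usp18, which removes ISG15 from proteins, was at 3 and 15 FPKM in the papain libraries 1 and 2, Oasl1 at 7 and 31, Rtp4 at 8 and 39, and Oasl2 at 6 and 30 FPKM. Ifi35, at 15 and 16 FPKM, Tap1, at 15 and 19 FPKM, and Igtp, at 14 and 18 FPKM, were among the members least apart. In naive basophils, 35 of 39 members were higher in library 1 than in library 2 and 1 was lower, while 7879 of the 14257 genes tested were higher in library 1 and 2138 lower. In naive library 1, 17 members and 8.81% of all genes were over 2-fold higher, and in naive library 2 no member and 1.045% of all genes were. The 4 transcription factors and all 5 nucleic acid sensors (Ifih1, Ddx58, Dhx58, Zbp1 and Eif2ak2) were higher in naive library 1. Members lay closer together in the replicates of the other groups, with a median absolute difference of 0.17 to 0.49 on the log2 scale, against 1.24 in papain and 1.00 in naive basophils.

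**Figure D3:**
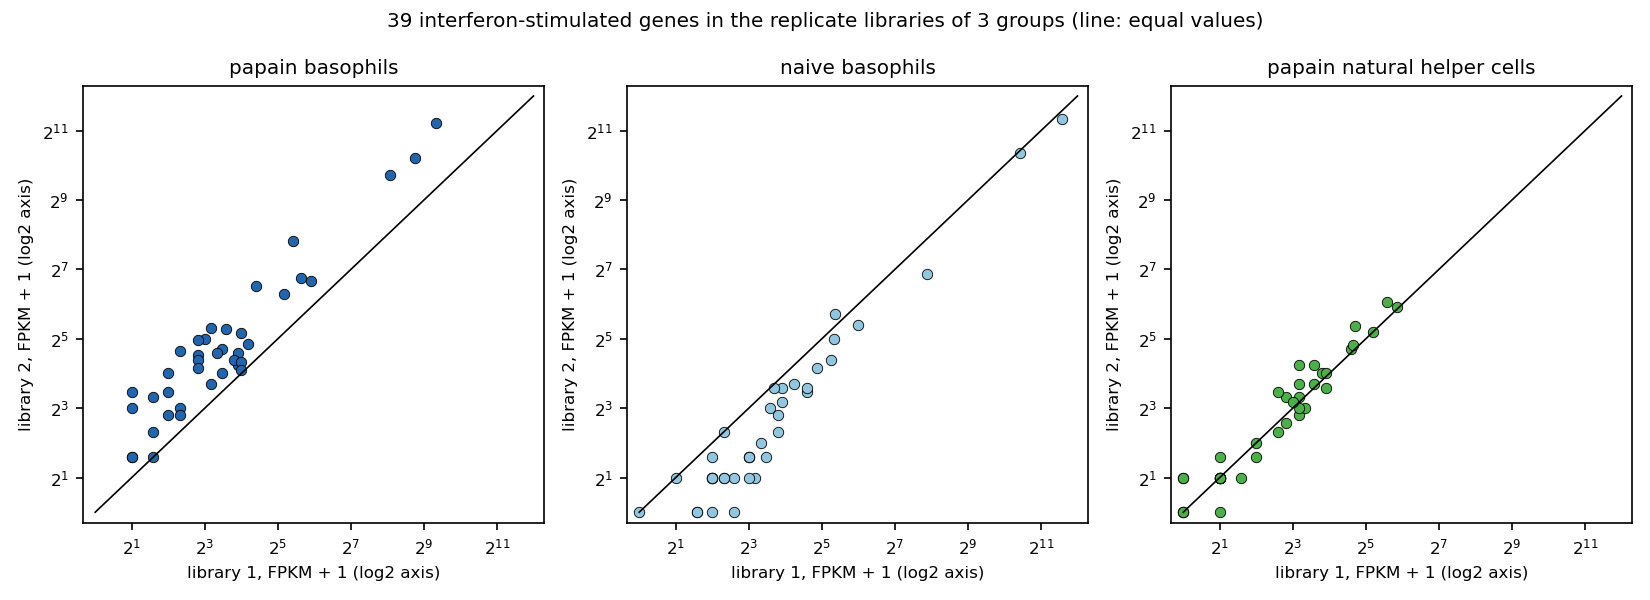
FPKM + 1 in library 2 against library 1, both on log2 axes, for 39 interferon-stimulated genes in papain basophils, naive basophils and papain natural helper cells, with the line of equal values. In papain basophils 38 of 39 points lie above the line, in naive basophils 35 lie below it, and in papain natural helper cells they lie close to it on both sides.

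The calls in basophils followed these libraries, but each such fit leaves 1 library in a group, and fewer of all genes were then called too. The median differences of members and of all genes were 1.58 and 0.415 without papain library 1. They were 0.435 and 0.335 without naive library 2, and 1.4 and 0.585 without naive library 1. Without papain library 2, no member was called higher and 3 were called lower: Ifitm1 (-2.12), Ifitm2 (-1.63) and Isg20 (-1.14). Without papain library 1, 17 members were called higher, among them Isg15, Isg20, Ifit3, Oas2, Oasl1, Oasl2, Rtp4, Tap2, Usp18 and Xaf1. Without naive library 2 none was called, and without naive library 1, 16 were. Of the 12 alternatives, Irf1 and Bst2 kept the call in 9, Irgm1 and Ifi44 in 8, and Ifit1 and Oas1a in 4. Papain library 2, the library in which the members were higher, had 305 FPKM of alveolar macrophage markers, 1234 FPKM of 12 monocyte and macrophage markers, 35814 FPKM of epithelial markers, 7286 FPKM of neutrophil markers and 349 FPKM of 8 endothelial markers. Papain library 1 had 12273, 4967, 20982, 3215 and 114 FPKM of the same lists. The 7 plasmacytoid dendritic cell markers summed to 130 FPKM in library 2 and 96 in library 1. Bst2, itself one of the members, held 101 and 59 FPKM of these sums. Among the other markers, Ly6d was lower in library 2 (12 against 27 FPKM) and Tcf4 higher (15 against 7 FPKM). Naive library 1, the higher one, had 791 FPKM of monocyte and macrophage markers, against 169 in naive library 2. The part of these cells in the result was not tested.

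**Figure D4:**
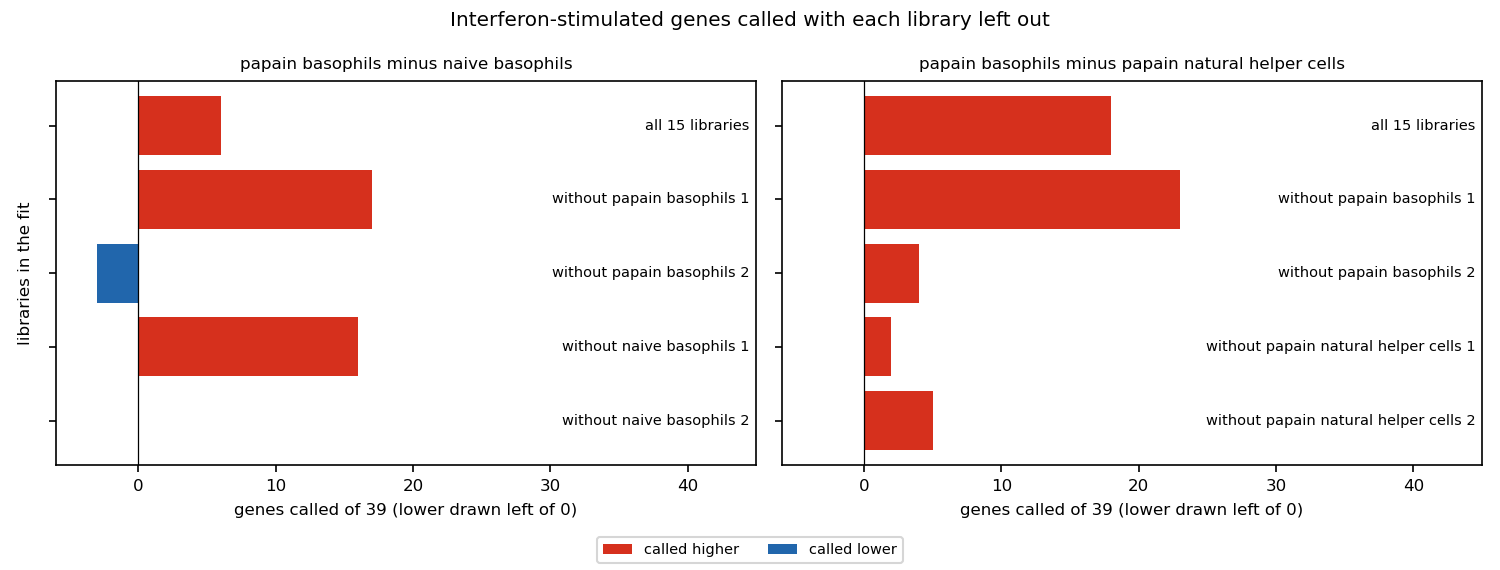
Number of the 39 interferon-stimulated genes called higher (right of 0) or lower (left of 0) in 2 comparisons of papain basophils, with all 15 libraries and with each library of the compared groups left out. Against naive basophils the count runs from 17 higher, without papain library 1, to 3 lower, without papain library 2.

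Papain basophils were higher than papain natural helper cells in 18 members and lower in none, against 12.6% and 7.18% of all genes. The members' median difference was 1.29, and that of all genes was 0. Without papain basophil library 2 the members' median was 0.615, and without either papain natural helper cell library it stayed at 1.29. The 18 comprised 8 of the 10 effectors that act on RNA (Ifit1, Ifit3, Isg20, Oas1a, Oas2, Oasl1, Oasl2 and Rsad2), all 5 membrane proteins (Ifitm1, Ifitm2, Ifitm3, Bst2 and Rtp4), both genes of the ISG15 system (Isg15 and Usp18), Gbp2, Mx2 and Ifi44. Isg15 was at 42 and 224 FPKM in papain basophils, against 11 and 12 FPKM in papain natural helper cells (2.98 ± 0.72, adjusted p = 0.0232). Oasl1 was at 7 and 31 FPKM in papain basophils, against 0 and 1 FPKM in papain natural helper cells (3.50 ± 0.79, adjusted p = 0.0181). Ifitm3 was at 268 and 850 FPKM in papain basophils, against 47 and 66 FPKM in papain natural helper cells (3.08 ± 0.56, adjusted p = 0.00751). Papain basophil library 1 was the lower one for each of these and still lay above both natural helper cell libraries. Gbp2, a guanylate-binding GTPase, was at 35 and 78 FPKM in papain basophils, against 8 and 18 FPKM in papain natural helper cells (2.03 ± 0.47, adjusted p = 0.0195). Both libraries of papain basophils lay above both of papain natural helper cells for 30 of 39 members, against 25.1% of all genes, and below for 1, against 26.6%. None of the 4 transcription factors, 5 nucleic acid sensors and 2 peptide transporter genes was called. Without papain basophil library 2 the count fell to 4, namely Ifitm1, Ifitm2, Ifitm3 and Isg20. Leaving out papain natural helper cell library 1 or 2 gave 2 and 5, and leaving out papain basophil library 1 gave 23. Without papain basophil library 2 or either papain natural helper cell library, fewer of all genes were called too. A fit of only the compared groups takes the spread from these groups alone and has few degrees of freedom. It called none of the 18 and 1 other member, Dhx58. In other comparisons such a fit moved the count both ways. It called 0 members in place of 6 for papain against naive basophils, and 9 in place of 2 for CD11c- eosinophils against papain natural helper cells. The cause was not tested. For papain basophils against papain natural helper cells, median-ratio scaling called 20 members and quantile normalization 16, all higher. The share of all calls that were higher was 72.0% and 48.3% under these scalings, against 63.6% unscaled.

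CD11c- eosinophils of papain mice were lower than papain basophils in 6 members and higher in none, against 6.52% and 4.87% of all genes. Bst2 was at 21 and 19 FPKM in CD11c- eosinophils, against 59 and 101 FPKM in papain basophils (-1.90 ± 0.32, adjusted p = 0.00856). Gbp2 was at 16 and 12 FPKM, against 35 and 78 FPKM in papain basophils (-1.84 ± 0.47, adjusted p = 0.0396), and Rsad2 at 2 and 1 FPKM, against 6 and 17 FPKM in papain basophils (-2.20 ± 0.51, adjusted p = 0.0295). Gbp3 also fell below papain basophils (-1.28 ± 0.31, adjusted p = 0.0345). Mx1, an interferon-induced GTPase, was listed at 0 in both CD11c- libraries, against 2 and 9 FPKM in papain basophils (adjusted p = 0.0355), and Ifi44 was likewise listed at 0 (adjusted p = 0.0285). All 6 separated the groups without overlap. In all, both CD11c- libraries lay below both papain basophil libraries for 26 members, against 27.0% of all genes, and above them for 2, against 17.3%. The count was 21 without papain basophil library 1, 1 without papain basophil library 2, 1 without CD11c- library 1 and 0 without CD11c- library 2. Median-ratio scaling called 8 and quantile normalization 4, all lower, and a fit of only the compared groups called 0. Of all calls 42.7% were higher unscaled, 42.2% with median-ratio scaling and 66.8% with quantile normalization. Against papain natural helper cells, CD11c- eosinophils were higher in 2 members and lower in none, against 7.67% and 8.93% of all genes. These were Ifitm1, at 700 and 336 FPKM against 5 and 10 FPKM in papain natural helper cells (5.90 ± 0.64, adjusted p = 0.000453), and Ifitm2, at 478 and 226 FPKM against 57 and 60 FPKM in papain natural helper cells (2.47 ± 0.46, adjusted p = 0.00693). In this comparison 17 members lay above without overlap, against 22.5% of all genes, and 10 below, against 33.7%. Without papain natural helper cell library 1 or CD11c- library 1, 1 member was called.

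In eosinophils few members passed the test after papain. In CD11c+ eosinophils 1 member was higher than in naive eosinophils and none was lower, against 9.93% and 2.20% of all genes. The called gene, Gbp3, was at 8 and 8 FPKM in CD11c+ eosinophils, against 2 and 4 FPKM in naive eosinophils (1.22 ± 0.31, adjusted p = 0.0377). It kept the call in 4 of 12 alternatives, and median-ratio scaling called only Ifi35, as lower. The split of all calls was 81.8% higher unscaled, 56.7% with median-ratio scaling and 53.9% with quantile normalization. Ifi47 was at 13 and 9 FPKM in CD11c+ eosinophils, against 2 and 4 FPKM in naive eosinophils (1.61 ± 0.48, adjusted p = 0.0595), and Ifit1 at 5 and 7 FPKM, against 1 and 1 FPKM in naive eosinophils (1.79 ± 0.59, adjusted p = 0.0817). Neither overlapped with the naive libraries, and neither passed. Both CD11c+ libraries lay above both naive libraries for 15 members, against 34.0% of all genes, and below them for 6, against 10.7%. In CD11c- eosinophils limma called no member higher or lower, against 1.87% and 0.372% of all genes. The member with the lowest unadjusted p was Ifi47, at 7 and 10 FPKM (1.28 ± 0.48, adjusted p = 0.259). Of all calls in CD11c- eosinophils 83.4% were higher unscaled and 72.9% with median-ratio scaling. The members' median difference was -0.21 in CD11c- eosinophils, where that of all genes was 0.21, and 0.40 in CD11c+ eosinophils, where that of all genes was 0.34. In CD11c- eosinophils 12 members lay below both naive libraries, against 9.41% of all genes, and 5 above both, against 27.8%. Among these 12, Isg15 was at 30 and 16 FPKM in CD11c- eosinophils, against 80 and 44 FPKM in naive eosinophils (-1.40 ± 0.72, adjusted p = 0.441), and Irf7 at 13 and 17 FPKM, against 25 and 21 FPKM in naive eosinophils (-0.59 ± 0.55, adjusted p = 0.723).

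CD11c+ and CD11c- eosinophils of papain mice differed in no member by limma, against 0.0281% of all genes in either direction. The 4 members with the lowest unadjusted p were Bst2, at 45 and 38 FPKM in CD11c+ eosinophils against 21 and 19 FPKM in CD11c- eosinophils (1.01 ± 0.32, adjusted p = 0.5), and Gbp2, Gbp3 and Rsad2, with differences of 1.08, 0.72 and 1.27. Of the genes called over all, 4 were higher and 4 lower unscaled, and under each scaling only 1 gene was called, as higher. Both CD11c+ libraries lay above both CD11c- libraries for 15 members, against 20.8% of all genes, and below them for 1, against 9.01%. Ifitm3 was at 208 and 245 FPKM in CD11c+ eosinophils, against 171 and 99 FPKM in CD11c- eosinophils, while Ifitm1 was at 296 and 275 FPKM, against 700 and 336 FPKM in CD11c- eosinophils. Alveolar macrophage markers summed to 1259 and 1491 FPKM in the CD11c+ libraries, against 546 and 435 FPKM in the CD11c- libraries, and their part in these values was not tested.

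In natural helper cells limma called no member after papain, against 0.540% of all genes higher and 0.245% lower, and none had an unadjusted p under 0.05. The median difference of the members was 0, and that of all genes was 0.09. Of the genes called over all, 68.8% were higher unscaled, 38.5% with median-ratio scaling and 54.5% with quantile normalization. Isg15 was at 11 and 12 FPKM in papain natural helper cells, against 10 and 19 FPKM in naive ones, Irf7 at 8 and 6 FPKM, against 9 and 5 FPKM in naive natural helper cells, and Bst2 at 36 and 36 FPKM, against 36 and 32 FPKM in naive natural helper cells. The groups overlapped for each of these. Ifitm2 was at 57 and 60 FPKM, against 43 and 30 FPKM in naive natural helper cells, without overlap (0.69 ± 0.46, adjusted p = 0.693). Members separated the groups with papain higher in 5 cases, against 26.1% of all genes, and lower in 1, against 8.47%. The 3'UTRKO library differed from papain natural helper cells in no member by limma, against 0.210% of all genes higher and 0.358% lower, with none under 0.05 before adjustment. Of all calls 37.0% were higher unscaled and 48.1% with median-ratio scaling. With 1 library, its spread is assumed to equal that of the other groups. It lay above both papain libraries for 6 members, against 20.1% of all genes, and below both for 13, against 37.7%. It was the lowest of the 8 groups for 8 members, and naive basophils were also the lowest for 8. The 3'UTRKO value is 1 library set against means of 2, and the share of all genes for which it was lowest was not counted. Among the 8 were Isg15, at 5 FPKM against 11 and 12 FPKM in papain natural helper cells, and Ifitm2, at 29 FPKM against 57 and 60 FPKM in papain natural helper cells. Rtp4 was listed at 0 there, against 3 and 2 FPKM in papain natural helper cells.

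**Figure D5:**
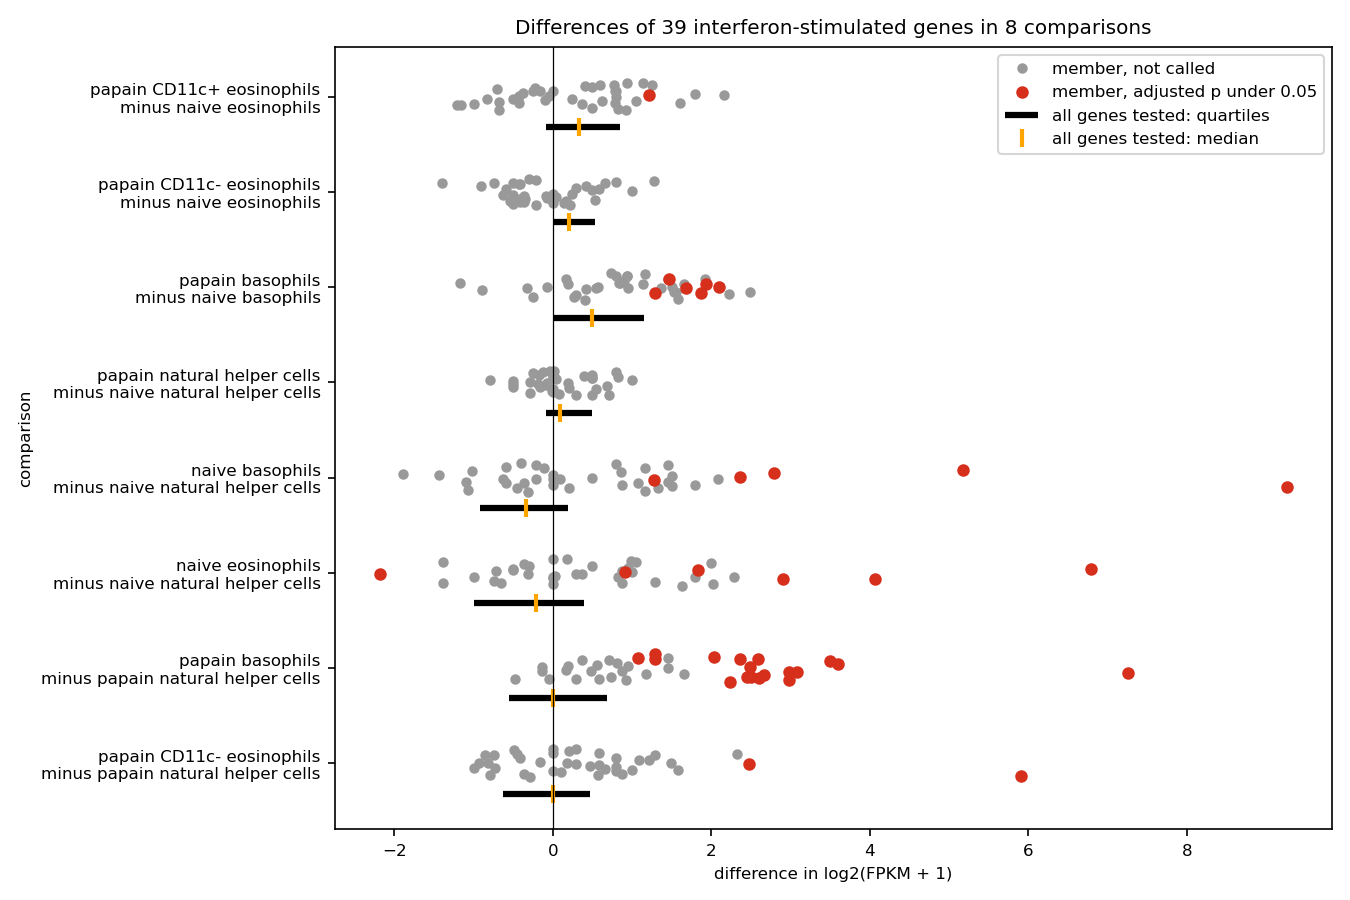
Differences in log2(FPKM + 1) of the 39 interferon-stimulated genes (points) in 8 comparisons, with genes at an adjusted p under 0.05 in red, and the quartiles (black bar) and median (orange mark) of all genes tested below them. Papain natural helper cells against naive ones have no red point and papain basophils against papain natural helper cells have 18.

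The responses to papain, taken as papain minus naive, were compared between cell types by a test of their difference. Between basophils and natural helper cells no member passed in limma, against 4.64% of all genes higher and 2.12% lower in basophils. The median of the members was 0.96, and that of all genes was 0.36. Without papain basophil library 2 these medians were 0.373 and 0.459. Irf1 came closest among the transcription factors, with a difference of 2.19 ± 0.55 (adjusted p = 0.0505), and it passed with a pseudocount of 5 in place of 1 and under both scalings. Between CD11c- eosinophils and natural helper cells no member passed, against 0.596% and 0.610% of all genes. Between CD11c- eosinophils and basophils no member passed either, against 0.751% and 1.61% of all genes. In this last comparison 37 of 39 values were negative, with a median of -1.15 against -0.27 over all genes. The quartiles of all genes were -0.81 and 0.29, and the share of all genes with a negative value was not counted. Papain basophil library 2, in which the members were highest, enters this comparison too. The share of all calls that were higher was 31.8% unscaled there, 60.9% with median-ratio scaling and 70.1% with quantile normalization. For basophils against natural helper cells it was 68.6%, 62.5% and 42.9%, and for CD11c- eosinophils against natural helper cells 49.4%, 61.7% and 56.1%, in the same order. Leaving out naive basophil library 1 gave 6 members for basophils against natural helper cells, leaving out papain basophil library 1 gave 5, and leaving out papain basophil library 2 gave 1, Ifitm2, as lower. These comparisons share libraries with one another and with those between 2 groups.

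The interferon genes themselves were at or near 0. Of 19 interferon genes with a row, 16 did not pass the filter. Ifnb1, which encodes interferon beta, was at 6 and 0 FPKM in papain basophil libraries 1 and 2 and at 1 and 0 FPKM in naive basophils. It was thus listed at 0 in papain library 2, in which the members were highest. Ifng, which encodes interferon gamma, was at 0 to 2 FPKM in every library. Ifnar1, Ifnar2, Ifngr1, Ifngr2 and Il10rb were above 0 in every library, and Il28ra, a subunit of the interferon lambda receptor, was listed at 0 in all natural helper cell and naive eosinophil libraries. Of 6 receptor genes, 2 were called higher in papain than in naive basophils and none lower, where 22.1% and 3.88% of all genes were: Ifnar2, at 51 and 51 FPKM in papain basophils against 25 and 29 FPKM in naive basophils (0.90 ± 0.17, adjusted p = 0.00736), and Il28ra, at 2 and 5 FPKM in papain basophils against 1 and 0 FPKM in naive basophils (1.59 ± 0.39, adjusted p = 0.0189). Ifnar1 was at 18 and 12 FPKM in papain basophils, against 19 and 13 FPKM in naive basophils. Naive eosinophils were higher than naive natural helper cells in 4 receptor genes and lower in 1, where 11.6% and 16.5% of all genes were. Ifngr1, which encodes the binding chain of the interferon gamma receptor, was the lower one, at 66 and 60 FPKM in naive eosinophils against 228 and 238 FPKM in naive natural helper cells (-1.87 ± 0.50, adjusted p = 0.0213). Ifngr2, the signalling chain, went the other way, at 109 and 106 FPKM in naive eosinophils against 30 and 39 FPKM in naive natural helper cells (1.62 ± 0.26, adjusted p = 0.00187).

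Other genes of the pathway were taken from lists of 45 further interferon-induced genes, 11 kinases, STATs and inhibitors, and 14 tested genes upstream of interferon. Of the 45 further genes, 11 were higher and 1 was lower in papain than in naive basophils, with a median of 0.77. Over all genes 22.1% were higher, 3.88% were lower and the median was 0.50. Of the 11 kinases, STATs and inhibitors none was higher and 2 were lower there, and of the 14 upstream genes 1 was higher. Ly6a, the surface protein Sca-1, was at 184 and 305 FPKM in papain basophils, against 53 and 16 FPKM in naive basophils (2.97 ± 0.49, adjusted p = 0.004). Iigp1, an immunity-related GTPase, was at 13 and 14 FPKM in papain basophils, against 2 and 0 FPKM in naive basophils (3.07 ± 0.56, adjusted p = 0.00599). The chemokine Cxcl10 was at 64 and 142 FPKM in papain basophils, against 36 and 3 FPKM in naive basophils (2.99 ± 0.89, adjusted p = 0.0379). Cxcl10 lost the call without either papain library, without naive library 2 and with a term for the replicate number. The papain libraries were close for Iigp1, and both it and Ly6a kept the call without either papain library. In papain basophils 34 of the 45 were higher in library 2 and 7 in library 1, with a median difference of 0.34. Ly6a was also higher in CD11c+ eosinophils, at 73 and 73 FPKM, and in CD11c- eosinophils, at 62 and 51 FPKM, against 4 and 4 FPKM in naive eosinophils (3.89 ± 0.49, adjusted p = 0.0023, and 3.52 ± 0.49, adjusted p = 0.00851). Fibroblast markers, 7 in all, summed to 533 and 484 FPKM in CD11c+ eosinophils and 352 and 222 FPKM in CD11c- eosinophils, against 2 and 5 FPKM in naive eosinophils. The 12 epithelial markers summed to 10150 and 8554 FPKM in CD11c+ and 6723 and 9150 FPKM in CD11c- eosinophils, against 730 and 1827 FPKM in naive eosinophils, and the part of these cells in the Ly6a values was not tested. In CD11c- eosinophils the Ly6a call was lost without CD11c- library 1 or either naive library. In CD11c+ eosinophils 7 of the 45 were higher and 3 lower, where 9.93% and 2.20% of all genes were. In natural helper cells 1 of the 45 was higher after papain, Lgals3bp, at 36 and 41 FPKM in papain natural helper cells against 11 and 12 FPKM in naive ones (1.66 ± 0.21, adjusted p = 0.00792), and among the kinases and STATs 1 was higher, Stat3, at 153 and 172 FPKM in papain natural helper cells against 52 and 45 FPKM in naive ones (1.73 ± 0.30, adjusted p = 0.0386). Stat3 lost the call without any 1 of these 4 libraries, and Lgals3bp without naive library 1 or either papain library. Jak2, a kinase of the interferon gamma receptor and of cytokine receptors, was at 115 and 152 FPKM in papain basophils, against 416 and 393 FPKM in naive basophils (-1.61 ± 0.20, adjusted p = 0.0012).

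The members were also split by the motifs of their promoters. Of the 17 genes with an ISRE match, 4 were called higher in papain than in naive basophils, with a median difference of 1.14, and of the 13 without one, 2 were called, with a median of 0.94, where 22.1% of all genes were called higher. Against papain natural helper cells, papain basophils were higher in 9 of the 17 and in 5 of the 13, where 12.6% of all genes were. Of the 9 genes with a GAS match, 3 were called higher in papain than in naive basophils (Bst2, Irf1 and Oas1a), and of the 21 without one, 3 were. Ifitm1, the member that differed most between cell types, had neither motif in this window. Ifit, Ifitm, Oas, Gbp and immunity-related GTPase genes have near-identical copies that may share reads, and the strand used in counting is not given, so their levels are uncertain to that extent.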

How the data were processed

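RNA was sequenced from 10 ng per sample after poly(A) selection, per the labels' protocols. Per the submitters' processing notes, TopHat 1.4.0, Cufflinks 1.3.0 and the mouse build mm9 were used. The deposited table holds 1 score per gene and library, FPKM that the authors normalized to transcript length and library size and rounded to whole numbers, so it is not a read count. That the unit is FPKM was read from the tools and the values. Digit-grouping commas in 1008 cells were removed, and 3 cells next to 0 were set to 0. Of the symbols, 19085 matched the reference names.

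From the deposited values, log2(FPKM + 1) was computed for genes with at least 1 FPKM in at least 2 libraries. Rounding makes folds of low genes coarse, and the added 1 understates them. With limma 3.58.1 in R 4.3.3, 1 coefficient per group was fitted over all 15 libraries (7 residual degrees of freedom, spread moderated with a trend on expression), for 15 comparisons, with Benjamini-Hochberg adjustment over 14257 genes and a threshold of 0.05. Errors are standard errors of that fit, and every adjusted p comes from it. The fit takes 1 spread per gene for all groups. The members' replicates lay further apart in papain and naive basophils (medians of 1.24 and 1.00 on the log2 scale) than in the other groups, so errors for basophils may be understated. The procedure was first tested on simulated data with 1 spread per gene for all groups. That setting does not cover groups with a wider spread, such as the basophils here, so it gives no assurance for their comparisons. Alternatives were other pseudocounts, no filter, 2 scalings, no trend, a replicate term, only the compared groups, and each library left out.

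The members, the gene lists, the cell type markers and the tests were chosen with earlier results of these data known. Values in every library are given for members past the threshold with a group mean of 5 FPKM or more, up to 8 per comparison, and for a fixed list of well-known members; other members are given by range and count, and some were named after their values were seen. Of the pathway genes, up to 5 called per comparison are named, besides the ligands and receptors.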

Additional observations from a re-analysis of the deposited data

Results flagged for a closer look

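Among genes of the interferon pathway outside the 39 members, 8 are named here for a papain response that differed between cell types. The test was limma's test of the difference between responses (papain minus naive, in log2(FPKM + 1)). At most 5 called genes per comparison, with a group mean of 5 FPKM or more, are named, so 8 is not a full count. Of all genes, 4.64% were called higher and 2.12% lower for basophils against natural helper cells. The shares were 0.596% and 0.610% for CD11c- eosinophils against natural helper cells, and 0.751% and 1.61% against basophils. Between basophils and natural helper cells, the difference was -2.65 for Jak2 (adjusted p = 0.00302), with 115 and 152 FPKM in papain basophils, 416 and 393 FPKM in naive basophils, 197 and 207 FPKM in papain natural helper cells and 86 and 110 FPKM in naive ones. This difference passed in all 16 alternatives. Stat4 (-2.47, adjusted p = 0.0428), Irf4 (-4.15, adjusted p = 0.04), Iigp1 (3.36, adjusted p = 0.0416) and Lgals9 (1.51, adjusted p = 0.0274) also passed, and kept this in 7, 7, 5 and 10 of the 16. Stat4, Irf4 and Iigp1 did not pass with a term for the replicate number. Irf4, a transcription factor of lymphocytes, was at 65 and 73 FPKM in papain and 5 and 7 FPKM in naive natural helper cells.

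Between CD11c- eosinophils and natural helper cells the difference was -1.63 for Jak2 (adjusted p = 0.0364) and -1.66 for Tapbp, which helps load peptides onto MHC class I (adjusted p = 0.0496); they passed in 5 and 2 of 16 alternatives. Between CD11c- eosinophils and basophils it was -2.02 for Lgals9 (adjusted p = 0.0153), -2.56 for the immunoproteasome gene Psmb10 (adjusted p = 0.0447) and -3.10 for Tmem173, which encodes the DNA-response adaptor STING (adjusted p = 0.0265). Lgals9 passed in 12, Psmb10 in 6 and Tmem173 in 10 of 16 alternatives. Psmb10 did not pass with a term for the replicate number, and neither did Jak2 and Tapbp between CD11c- eosinophils and natural helper cells. Tmem173 was at 5 and 8 FPKM in CD11c- eosinophils, 21 and 18 FPKM in naive eosinophils, 10 and 12 FPKM in papain basophils and 4 and 2 FPKM in naive basophils. Basophil and macrophage markers moved with papain in the basophil libraries, and their part in these differences was not tested.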

How the results depend on the processing

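Of 47 calls on members, 6 kept their direction and side of the threshold in every alternative (Ifitm1 and Ifitm2 in naive basophils and in naive eosinophils, and Ifi35 in naive eosinophils, against naive natural helper cells, and Ifitm1 in CD11c- eosinophils against papain natural helper cells), and none reversed. With each library left out in turn, the members called were 0 to 17 for papain against naive basophils, 2 to 23 for papain basophils and 1 to 2 for CD11c- eosinophils against papain natural helper cells, 0 to 21 for CD11c- eosinophils against papain basophils, 0 to 1 for CD11c+ against naive eosinophils, 3 to 9 for naive basophils and 4 to 4 for naive eosinophils against naive natural helper cells, and 2 to 5 for naive eosinophils against naive basophils. For the responses they were 0 to 6 for basophils against natural helper cells and 0 to 4 for CD11c- eosinophils against basophils, and for the other comparisons 0 to 0. Fitting only the compared groups, which leaves fewer degrees of freedom, called 0 members for papain against naive basophils, 1 for papain against naive natural helper cells, 4 for CD11c- and 3 for CD11c+ against naive eosinophils, 2 for 3'UTRKO against papain natural helper cells, 10 for naive eosinophils against naive natural helper cells, 1 for papain basophils and 9 for CD11c- eosinophils against papain natural helper cells, 0 for CD11c- eosinophils against papain basophils and 3 for the response of CD11c- eosinophils against natural helper cells. Median-ratio scaling called 9 for naive basophils and 11 for naive eosinophils against naive natural helper cells, 6 for naive eosinophils against naive basophils and 1 for the response of basophils against natural helper cells. Quantile normalization called 0 for CD11c+ against naive eosinophils, 10 for naive basophils, 13 for naive eosinophils and 5 for CD11c- eosinophils against the matching natural helper cells, and 1 for the response of basophils against natural helper cells. A pseudocount of 5 called 0 for CD11c+ against naive eosinophils and 1 for that response. The causes of the changes under scaling and pseudocount were not tested. A term for the replicate number (block) called 0 for CD11c+ against naive eosinophils, 4 for papain against naive basophils and 12 for papain basophils against papain natural helper cells. Same-numbered libraries of 21 pairs of groups had deviations correlated at -0.15 to 0.12, with 1 pair over 0.1, so the numbers were not taken to pair them. A left-out library leaves 1 in its group, and the number of all genes called then often fell as well. Depth is unknown, and values of a few FPKM rest on rounding.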
